A study of Rattus norvegicus with 10 samples.

Results

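The regions described here were the 5582 most densely tagged of 558245 autosomal regions that were longer than 400 bp and shorter than 3000 bp. They came from a matrix of 716492 regions of methylated DNA of rat hippocampus. Read tags were scaled to 1000000 tags counted over all regions of the matrix (CPM). Density was this number per kb of region, averaged over 9 of 10 rats. The densest 1% of the regions were kept, so that density itself chose them and their high density is no result. Sham rat 5 had no part in the choice. The choice averaged over 4 sham and 5 injured rats and did not use the difference between them. Positions are those of the rat RN4 assembly as deposited. No gene annotation or sequence of that assembly was used here, and the regions are named by position.

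The rats were adult males of the outbred Sprague-Dawley strain. Traumatic brain injury (TBI) was produced by lateral fluid percussion, a brief pressure wave passed through saline onto the dura over the left parietal lobe. Sham rats had the same anesthesia and craniectomy without the pressure wave. At 3 months, tissue with the CA3 field and the dentate gyrus of the left hippocampus was taken (dorsal hippocampus in the labels), and 1 library was made from each of 5 sham and 5 TBI rats, chosen from the animals that survived and numbered here from 1 within each group. The methods text counts 1 sham rat fewer in the methylation assay than the labels do, without saying which rat, and all 5 labelled sham libraries were used here. Per the study's methods, the TBI rats had no EEG monitoring, so which of them had epilepsy is not known. Tag counts of DNA carry no marker of cell type, and the labelled tissue could not be checked in them.

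Methylation of cytosine at CpG sites is the main covalent mark of mammalian DNA. It is dense in most repeated sequence and in gene bodies, and low at most CpG islands of active promoters. A methyl-binding protein holds fragments with several methylated CpG sites more firmly than fragments with few, so captured DNA piles up where methylated sites lie close together. A tag count rises with methylation, with CpG density and with the number of copies of a sequence, and these cannot be told apart in the matrix. In bulk tissue, a change of methylation within cells and a change in the mixture of cells cannot be told apart either.

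The libraries differed in how many of their counted tags lay in the dense regions. Libraries held between 13597924 and 21672940 tags over all regions of the matrix. Reads outside these regions are not in the matrix, so every share of tags given here is a share of these totals. In sham rats 1 to 5, the dense regions took 7.70%, 5.51%, 7.21%, 8.25% and 3.51% of all tags. In TBI rats 1 to 5 they took 6.48%, 7.08%, 6.70%, 6.29% and 6.44%. The TBI rats lay close together, and the sham rats reached both above and below them. Sham rat 5 stood lowest, and sham rat 2 was next. Every dense region held tags in every rat, with at least 8 tags in sham rat 5 and at least 18 in any other rat. The median dense region held between 78 tags (sham rat 5) and 215 tags (sham rat 4).

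Sham rat 5 allows the choice to be checked in a library that did not make it. The 5582 densest regions of this rat held 32.2% of the regions chosen in the other 9 rats. For each of those 9 rats, the densest regions were also chosen again from the other 8 rats and looked for in the rat left out. Of these, sham rats 1 to 4 held 73.6%, 60.8%, 77.4% and 76.9%, and TBI rats 1 to 5 held 68.6%, 74.3%, 75.1%, 73.8% and 69.3%. The median density of the dense regions was 2.20 times that of all regions of the same length range in sham rat 5. It was between 4.22 and 9.04 times in the other rats. Those 9 rats made the choice here, which favours them over sham rat 5 in these ratios. The same holds for the shares of tags given above, and for the log2 ratio and the ranks that come next. Relative to the mean of the other rats, the median dense region of sham rat 5 was lower by a log2 ratio of -1.06. In CPM scaled by trimmed mean normalization (TMM), sham rat 5 was the lowest of all 10 rats in 4720 dense regions (84.6%), and sham rat 4 was the highest in 3589 (64.3%). The part that library preparation had in these differences was not tested. Comparisons of TBI and sham rats over the dense regions, and of the regions named for a small p, are therefore given both with all rats and without sham rat 5.

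**Figure D1:**
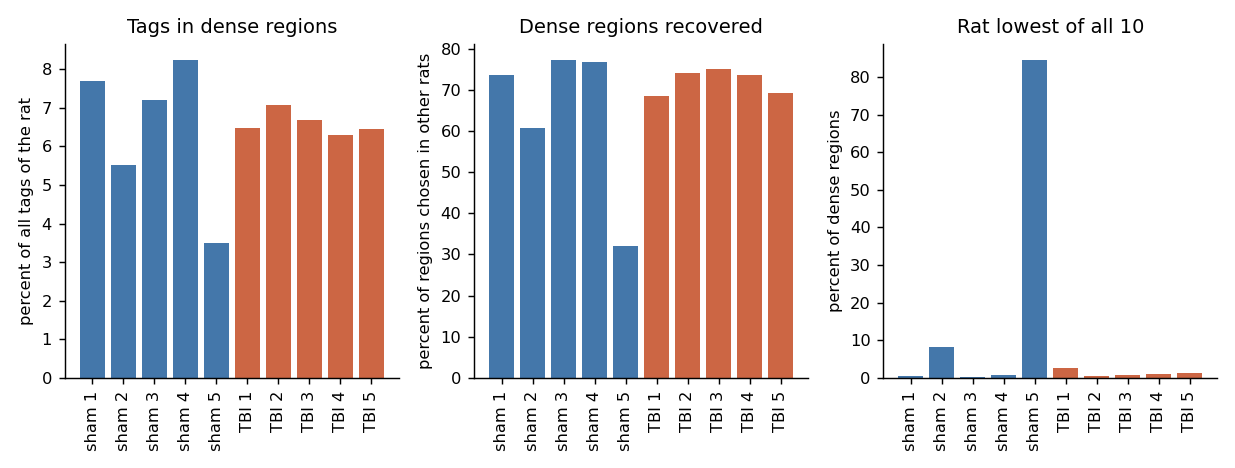
Bars give, for each of 5 sham rats (blue) and 5 TBI rats (orange), the percent of its tags that lay in the dense regions, the percent of regions chosen in the other rats that were among its own densest, and the percent of dense regions in which it was the lowest of all 10 rats. Sham rat 5, which had no part in the choice, had 3.51% of its tags in the dense regions. It recovered 32.2% of the choice and was the lowest rat in 84.6% of the regions.

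Most of the choice was shared when it was made from each group alone. When the densest 1% were taken from sham rats 1 to 4 alone and from TBI rats alone, 4600 regions were shared, which is 82.4% of each list of 5582. Sets of rats mixed across the groups were not compared, so the part of group in the regions not shared was not tested. Averaging over all 10 rats kept 5426 of the dense regions, and the median of 9 rats in place of the mean kept 5148.

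To ask what range of densities the dense regions covered, they were ordered by density. The median was 7.64 CPM per kb, compared with 1.31 CPM per kb over all regions of the length range. The last regions inside the threshold had 6.64 CPM per kb (chr10:89893279-89894540, chr8:45357037-45358068 and chr17:85056047-85056925). The first regions outside had 6.64 CPM per kb as well (chr7:25148288-25150299, chr8:108629656-108630937 and chr4:26517503-26518355). The threshold thus divides a continuous range. Above it the tail was long. There were 750 regions over 10 CPM per kb, 140 over 20 and 33 over 100, and the densest had 1237 CPM per kb. The 10 densest regions took 9.46% of all tags in the dense regions, and the 100 densest took 21.0%.

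**Figure D2:**
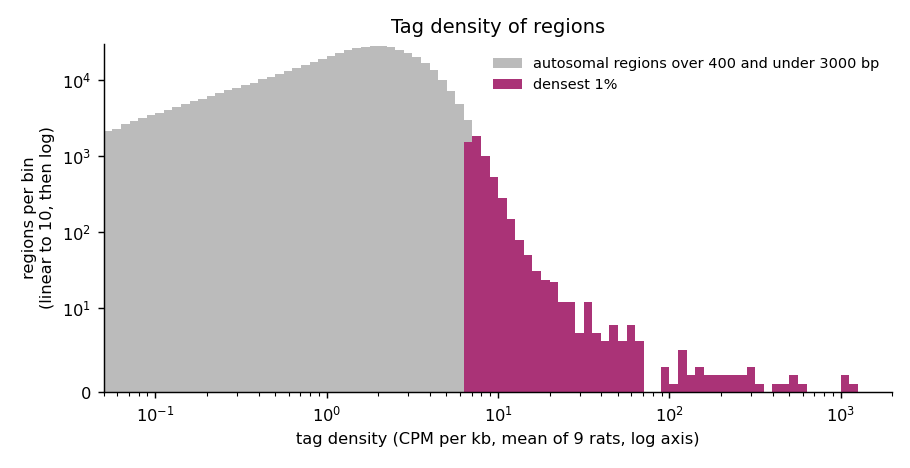
Histogram of tag density (CPM per kb, mean of 9 rats, log axis) of autosomal regions over 400 and under 3000 bp (grey) and of the densest 1% (purple), with the number of regions on an axis that is linear to 10 and logarithmic above. The purple tail runs from 6.64 to 1237 CPM per kb, and the least dense grey regions lie beyond the left edge.

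The densest regions held more tags than single reads per position allow. A read of 36 bp can start at each base on either strand, so a region counted once per position and strand holds about 2 tags per bp at most. In 38 of the dense regions this limit was passed in at least 1 rat, and in 11 it was passed in all 10 rats. The highest value was 32.6 tags per bp. Only 44 regions of the whole matrix passed the limit. Of these, 38 were autosomal regions of the length range, and all 38 were dense. Tag density chose the dense regions, so this concentration is no result. The study's methods state that reads at the same location were removed, and in these 38 regions the deposited counts exceed what that would leave. Without them, the dense regions took 6.21%, 4.56%, 5.97%, 6.94% and 2.96% of the tags of sham rats 1 to 5. In TBI rats 1 to 5 they then took 5.21%, 6.01%, 5.61%, 5.50% and 5.25%.

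The densest region of all lay at chr5:2704023-2704808. Its density in sham rats 1 to 5 was 1522, 832, 1478, 1584 and 446 CPM per kb. In TBI rats 1 to 5 it was 1180, 1174, 1261, 962 and 1144 CPM per kb, so that the TBI rats lay within the range of the sham rats. The next lay at chr1:145514500-145515200 (1095 CPM per kb) and at chr7:101749393-101750355 (1026 CPM per kb). At chr3:143742-145177 the density was 586 CPM per kb, and at chr1:70431449-70432558 it was 562 CPM per kb. On chromosome 13, the region from 108740949 to 108743004 had 552 CPM per kb and that from 36740432 to 36741129 had 493 CPM per kb. The remaining ones lay at chr8:120170940-120172045 (426 CPM per kb), at chr14:56506668-56507613 (323 CPM per kb) and at chr4:152578605-152579042 (311 CPM per kb). These 10 lay on 8 chromosomes, and in each of them the values of sham and TBI rats overlapped.

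**Figure D3:**
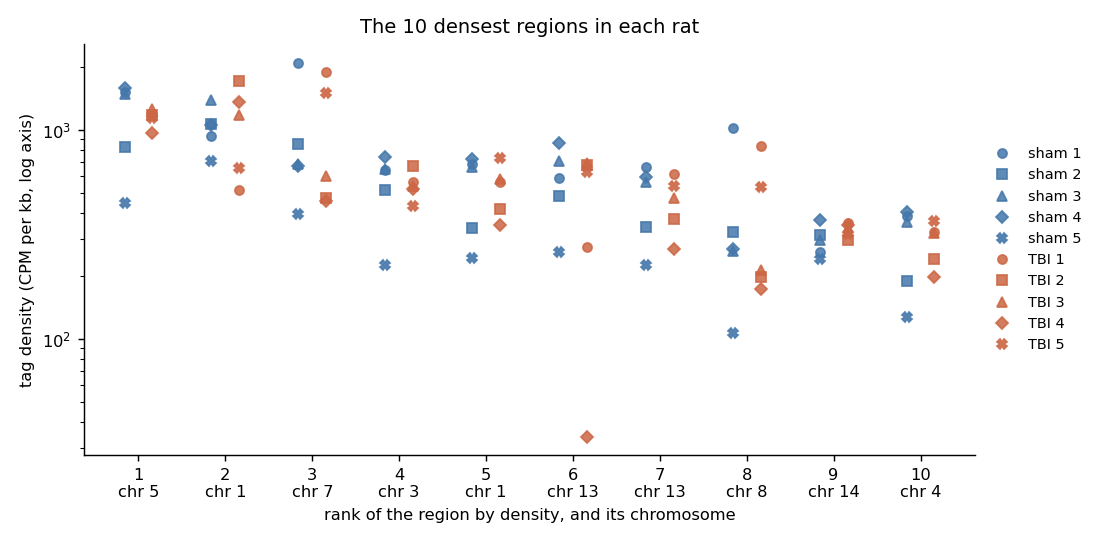
Tag density (CPM per kb, log axis) of the 10 densest regions in each sham rat (blue) and TBI rat (orange), with 1 symbol per rat. Sham and TBI rats overlap in every region, TBI rat 4 has 34.0 CPM per kb in the sixth region, and sham rat 1, TBI rat 1 and TBI rat 5 are the 3 highest in the third and the eighth.

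Position was not used in the choice, and the dense regions were unevenly spread. Of the regions of the length range, 1.88% were dense on chromosome 20 (264 of 14066) and 1.86% on chromosome 12 (275 of 14781). Chromosome 16 followed with 1.39%, and chromosome 11 had the lowest share with 0.780% (141 of 18084). When each chromosome was divided into 10 equal parts, 1.32% were dense in the first and 1.35% in the last, compared with 0.712% in part 6. Regions are not independent replicates, and these shares are given without a test. The dense regions were longer than the others, with a median of 1044 bp compared with 653 bp. Length enters the choice as a divisor and as a limit, so this is a description.

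**Figure D4:**
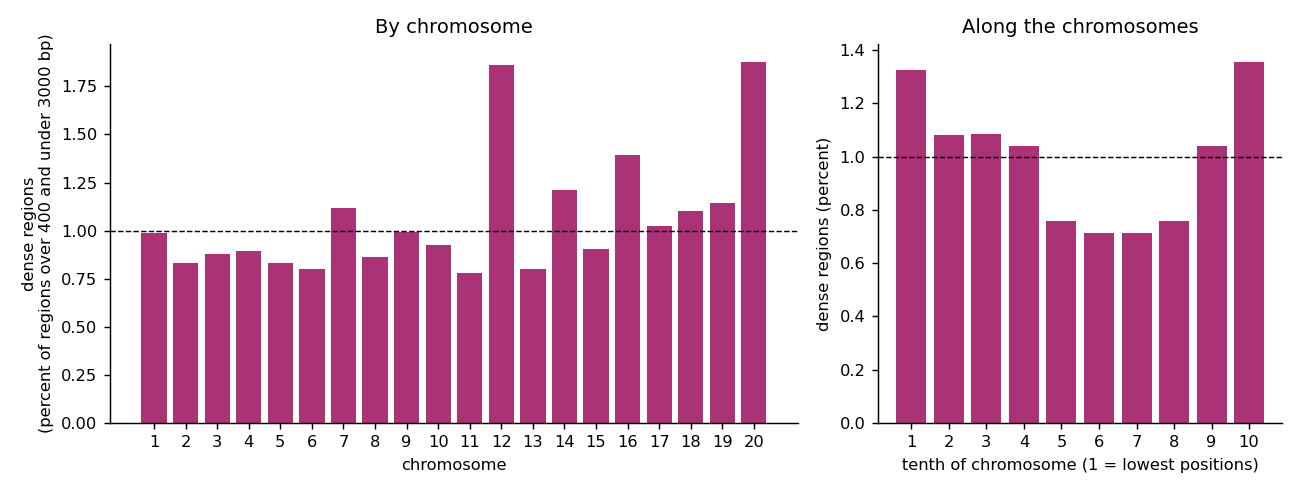
Bars show the dense regions as a percent of all regions over 400 and under 3000 bp on each chromosome and in each of 10 equal parts of the chromosomes, from low to high positions, with a dashed line at the 1% of the choice. Chromosomes 20 and 12 stand highest at 1.88% and 1.86%, and parts 5 to 8 lie below the line.

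Dense regions also lay near each other. Another dense region was found within 10 kb of 15.8% of them, compared with 6.27% of the other regions of the length range. Within 100 kb the shares were 56.5% and 40.1%. Dense regions also lay closer to regions of any kind, with a median gap of 403 bp compared with 510 bp. The shares were not matched for this crowding or for place on the chromosomes. With gaps of at most 10 kb, 4700 dense regions stood alone, and there were 333 pairs and 34 groups of 3, the others being larger. The group with the most dense regions lay at chr18:38719101-38746338, where 7 of 16 regions of the length range were dense, with 9.73 to 60.4 CPM per kb. Their log2 fold changes (TBI minus sham, edgeR) lay between -0.15 and 0.00 with all rats and between -0.32 and -0.19 without sham rat 5, and none had an unadjusted p under 0.01 in either fit. At chr12:4389479-4415684, 6 of 9 regions were dense, with 6.76 to 149.2 CPM per kb.

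How much the rats differed within their groups was then compared with counting error. The median within-group coefficient of variation of a dense region was 24.8% in all 10 rats, falling to 17.8% once sham rat 5 was omitted. Counting error alone would give 8.49% and 8.27%. After counting variance was subtracted, the medians were 23.2% and 15.7%, compared with 19.1% and 14.9% in the other tested regions of the length range, whose total variation was 26.9% and 24.0%. The dense regions thus owed less of their variation to counting. Tag density chose them, and they held a median of 145 tags per rat compared with 28.8, so this is no result. Over the 9 rats that made the choice, the highest rat was a median of 1.76 times the lowest. This range was under 1.5-fold in 865 dense regions (15.5%), over 3-fold in 130 (2.33%) and over 5-fold in 16. Among regions over 100 CPM per kb, 7 of 33 (21.2%) varied over 3-fold, compared with 89 of 4832 (1.84%) of those at or under 10 CPM per kb.

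The same rats were high in many dense regions. In 1244 of them (22.3%), the 3 highest of 9 rats were sham rats 1 and 4 and TBI rat 2, and in 803 they were sham rats 1, 3 and 4. Sham rats 1, 3 and 4 and TBI rat 2 had the 4 highest shares of tags in the dense regions. Another pattern was seen in 8 of the 130 most variable regions, chosen after their values were seen, in which the 3 highest rats were sham rat 1, TBI rat 1 and TBI rat 5. Over all dense regions these were the 3 highest rats in 12 (0.215%), compared with 0.996% of the other tested regions of the length range. Among the 130, 4 other sets of 3 rats were more frequent, in 21, 17, 16 and 10 regions. Of the 8, 7 had over 20 CPM per kb, and 5 passed the limit of single reads per position. The region at chr7:101749393-101750355 had 2097, 854, 686, 672 and 395 CPM per kb in sham rats 1 to 5, and 1887, 474, 602, 459 and 1502 CPM per kb in TBI rats 1 to 5. The region at chr8:120170940-120172045 had 1024, 325, 262, 269 and 107 CPM per kb in sham rats and 840.4, 198, 214, 173 and 530 CPM per kb in TBI rats. The 3 rats came from both groups, and over the 8 regions their mean was between 2.26 and 3.87 times that of the other 6 rats of the choice. The smallest unadjusted p of the 8 regions for TBI against sham was 0.572 in edgeR's quasi-likelihood test. The 8 regions were chosen because these 3 rats, from both groups, were highest. Neither the ratio nor this p is therefore a test of the pattern.

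Single rats stood apart in other regions. At chr13:108740949-108743004, sham rats 1 to 5 had 589.7, 481, 710.3, 869.6 and 262 CPM per kb. TBI rats 1 to 5 had 275, 682, 698, 34.0 and 627 CPM per kb, with 1331 tags in TBI rat 4 and 7857 to 31066 tags in the other TBI rats. The most variable dense region lay at chr9:110729163-110730034. Its TMM-scaled CPM was 1.47, 28.4, 23.8, 1.54 and 23.1 in sham rats 1 to 5 and 18.1, 2.09, 1.82, 21.8 and 44.0 in TBI rats 1 to 5. Thus 3 rats of each group had between 18.1 and 44.0 CPM, the other 4 rats had between 1.47 and 2.09 CPM, and no rat lay between.

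The next most variable lay at chr2:229729056-229729886 (coefficient of variation over 9 rats 80.2%) and at chr1:56509279-56510381 (76.6%). The former held between 22 and 199 tags per rat, and the latter between 427 and 4127 tags. The steadiest dense regions had 3.91% at chr7:127457098-127458782, 4.40% at chr12:43089943-43090963 and 4.90% at chr9:38248033-38249247. In the first of these, TMM-scaled CPM lay between 11.7 and 13.3 in the 9 rats of the choice, and sham rat 5 had 8.88 CPM.

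Whether the share of counted tags in the dense regions differed between injured and sham rats was tested over rats. Sham rats had 6.43 ± 1.93% of their tags there and TBI rats 6.60 ± 0.306% (SD, n = 5 each), a difference of 0.166 percentage points that did not pass the test (exact permutation test, two-sided, p = 0.889, adjusted p = 0.984 over 4 measures). Without sham rat 5 the sham mean was 7.17 ± 1.18% (SD, n = 4), and the difference of -0.566 percentage points did not pass the test either (exact permutation test, two-sided, p = 0.333, adjusted p = 0.614). The SD of sham rats was 6.32 times that of TBI rats, or 3.87 times when sham rat 5 was omitted, and this difference in spread was not tested. The share of regions recovered in each rat was 64.2 ± 19.1% in sham and 72.2 ± 3.02% in TBI rats (SD, n = 5 each; exact permutation test, two-sided, p = 0.484, adjusted p = 0.984). Without sham rat 5 it was 72.2 ± 7.78% in sham rats (n = 4, exact permutation test, two-sided, p = 1).

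Each dense region was then compared between TBI and sham rats by edgeR's quasi-likelihood test, fitted over all 358249 regions with enough tags. All 5582 dense regions passed that filter. With all 10 rats, 3 dense regions (0.0537%) had an unadjusted p under 0.01, compared with 0.266% of all regions tested. Of these, 2 were higher in TBI rats (0.098% of all regions tested) and 1 was lower (0.168%). At an unadjusted p under 0.05 there were 22 dense regions (0.394%), compared with 2.45% of all regions. Of these, 7 were higher in TBI rats (0.125%, against 0.94%) and 15 were lower (0.269%, against 1.51%). No dense region had an adjusted p under 0.05 (0 of 5582 by edgeR's quasi-likelihood test, its exact test and the DESeq2 Wald test, 0% of all regions by the first). At an unadjusted p under 0.01, the exact test gave 6 dense regions (0.108%, compared with 0.371% of all regions). The DESeq2 Wald test gave 6 as well (0.108%, compared with 0.245%). In none of the 5582 did the CPM values of sham and TBI rats fail to overlap, whereas 0.502% of all regions tested showed no overlap, 0.274% with TBI rats higher and 0.228% with TBI rats lower. As given above, sham rats held both the highest and the lowest value in most dense regions. The median log2 fold change was 0.01 over the dense regions and -0.02 over all regions tested.

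Without sham rat 5, the picture differed. At an unadjusted p under 0.01 there were 78 dense regions (1.4%), compared with 0.792% of 358615 regions tested. Of these, 74 were lower in TBI rats (1.33%, compared with 0.396% of all regions) and 4 were higher (0.0717%, compared with 0.397%). At an unadjusted p under 0.05 there were 467 (8.37%, compared with 4.59%), with 461 lower (8.26%, compared with 2.33%) and 6 higher (0.107%, compared with 2.26%). The median log2 fold change was -0.13, compared with -0.00268 over all regions, and 13.9% of the dense regions lay above 0. The CPM values did not overlap in 44 dense regions (0.788%, compared with 1.55% of all regions), of which 43 were lower in TBI rats (0.741% of all regions) and 1 was higher (0.808%). The 74 lower regions lay on all 20 autosomes, with log2 fold changes from -0.99 to -0.34. Sham rat 5 itself, which entered neither this fit nor the choice, was below the mean of the TBI rats in 69 of the 74 and in 5415 of all 5582 dense regions.

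The direction over the dense regions changed with the rat left out. Among single rats left out, the median log2 fold change was below 0 without sham rat 5, sham rat 2 (-0.05) or TBI rat 2 (-0.03), and above 0 otherwise. Without sham rat 4, 14 dense regions had an unadjusted p under 0.01 (0.251%, compared with 0.727% of all regions). The median log2 fold change in that fit was 0.14, compared with -0.01 over all regions. Loess offsets, which remove a trend of the libraries with mean abundance, gave 14 such dense regions with all rats (0.251%, compared with 0.358% of all regions). With loess offsets and without sham rat 5 there were 82 (1.47%, compared with 0.862% of all regions). The median log2 fold change was then -0.07, compared with -0.0006 over all regions.

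**Figure D5:**
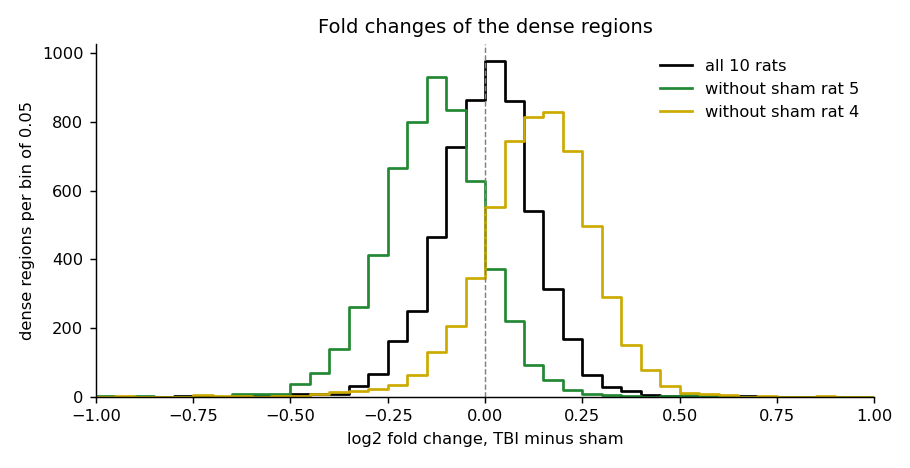
Number of dense regions per bin of 0.05 in log2 fold change (TBI minus sham) from edgeR fits with all 10 rats, without sham rat 5 and without sham rat 4. The whole distribution moves with the sham rat left out, from a median of 0.01 to -0.13 and 0.14.

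The 3 dense regions with an unadjusted p under 0.01 in the fit of 10 rats stayed among the 78 of the fit that omitted sham rat 5. At chr13:97833881-97834614, TMM-scaled CPM was 4.09, 6.41, 9.24, 12.2 and 19.2 in sham rats 1 to 5 and 6.70, 3.46, 3.08, 2.35 and 5.23 in TBI rats 1 to 5. Sham rat 5 was the highest here, unlike in most dense regions, and sham rats 1 and 2 lay within the TBI range. The log2 fold change was -1.32 ± 0.32 (SE, edgeR, adjusted p = 1) in all 10 rats and -0.99 ± 0.22 (SE, adjusted p = 0.671) without sham rat 5. At chr6:91337355-91338435, sham rats had 5.97, 7.10, 6.39, 8.94 and 2.64 CPM and TBI rats had 6.31, 11.0, 12.97, 10.4 and 9.58 CPM, with 39 to 257 tags. TBI rat 1 lay within the sham range, and the other 4 TBI rats above it. The log2 fold change was 0.70 ± 0.23 (SE) in all 10 rats and 0.51 ± 0.16 (SE) without sham rat 5.

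At chr14:4649616-4650521, TMM-scaled CPM was 8.75, 4.32, 8.76, 8.89 and 5.29 in sham rats and 12.4, 8.08, 7.62, 14.3 and 14.4 in TBI rats. TBI rats 2 and 3 lay within the sham range. The log2 fold change was 0.65 ± 0.22 (SE) with all rats and 0.55 ± 0.18 (SE) without sham rat 5. A further dense region 84.95 kb away, from 4562787 to 4564661, had an unadjusted p under 0.01 without sham rat 5 (log2 fold change 0.46 ± 0.14, SE) but not with all rats (0.29 ± 0.18, SE, unadjusted p = 0.126 in edgeR). It had 16.04, 18.1, 18.5, 16.9 and 28.3 CPM in sham rats and 25.6, 17.6, 19.2, 30.1 and 27.2 CPM in TBI rats, so TBI rats 1, 4 and 5 were the 3 highest TBI rats in both regions. The other region that was higher without sham rat 5 lay at chr4:75838224-75839702, with a log2 fold change of 0.53 ± 0.14 (SE), and with 0.43 ± 0.16 (SE, unadjusted p = 0.0151 in edgeR) when all rats were fitted.

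Among the regions lower in TBI rats without sham rat 5, only that at chr17:72380170-72381168 had an adjusted p under 0.05 (0.0039% of all regions did). Its TMM-scaled CPM was 7.45, 10.7, 11.8 and 10.8 in sham rats 1 to 4 and 5.20, 6.35, 6.00, 4.87 and 5.85 in TBI rats 1 to 5, with no overlap. Sham rat 5 had 3.12 CPM, below every TBI rat. The log2 fold change was -0.85 ± 0.14 (SE, edgeR, adjusted p = 0.0217) without sham rat 5 and -0.64 ± 0.24 (SE, adjusted p = 1) with all rats. The region with the next smallest p lay 48.3 kb away, from 72429505 to 72431775. It had 22.2, 18.8, 29.0 and 21.0 CPM in sham rats 1 to 4, 10.8 CPM in sham rat 5, and 14.0, 14.0, 13.2, 19.0 and 12.9 CPM in TBI rats. Its log2 fold change was -0.64 ± 0.14 (SE, adjusted p = 0.438) without sham rat 5 and -0.48 ± 0.20 (SE, unadjusted p = 0.0273 in edgeR) with all rats. The third dense region within 500 kb, from 72858702 to 72859900, did not follow them (log2 fold change 0.03 in the same fit). At chr17:32335793-32336496 the log2 fold change was -0.58 ± 0.15 (SE) without sham rat 5 and -0.42 ± 0.19 (SE, unadjusted p = 0.0414 in edgeR) with all rats. At chr18:24422832-24423330 it was -0.65 ± 0.17 (SE) without sham rat 5 and -0.47 ± 0.23 (SE, unadjusted p = 0.0526 in edgeR) with all rats. Each of the 6 regions named only from the fit without sham rat 5 had an unadjusted p over 0.01 when all rats were fitted. The naming fixed this beforehand, since every dense region under 0.01 with all rats was already named from that fit.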

How the data were processed

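Methylated DNA of 5 sham and 5 TBI rats was enriched by its binding to a methyl-CpG protein, and single reads of 36 bp were obtained. Per the study's methods, the authors used BWA for alignment to RN4 and MACS for region calls on every pair of libraries, joined the calls by BEDTools and deposited raw tag counts per region. Regions therefore entered because some pair of libraries differed. The rat number in each column name gave its sample (0 columns were left over). The members, lists and tests were chosen with earlier results of these data known.

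Regions with a tag sum at or above the 50th percentile (117 tags) entered the quasi-likelihood test of edgeR 4.0.16 (R 4.3.3, TMM factors, trended dispersion), with Benjamini-Hochberg adjustment over all regions tested. Standard errors came from the F statistic. Alternatives used DESeq2 1.42.0, loess offsets (span 0.3) and other choices given in the closing section. Counting error limits each value. The scripts were tested on simulated data. Shares were tested by exact permutation over rats (Python 3.11.15, numpy 2.4.6, pandas 2.3.3). Named regions were the 10 densest, the 5 smallest p under 0.01 in each direction with and without sham rat 5, the 3 most and 3 least variable, the 3 on each side of the threshold and the largest group. Positions are as deposited, and whether they count from 0 or 1 is not stated. Rats are separate animals.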

Additional observations from a re-analysis of the deposited data

Results flagged for a closer look

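Values of the named regions (TMM-scaled CPM) and of 5 library measures were searched for a rat far from the rest of its group. In 74 groups of 5 values, 11 had such a rat, whereas about 3.7 would be found by chance in values not chosen beforehand. That number is no reference here, because several regions were named for low variation over the 9 other rats or for a small p without sham rat 5, and 3 of the values come from neighbouring regions of chromosome 18. Sham rat 5 was the rat in 7 of the 11. It had 28.35 CPM on chromosome 14 from 4562787 to 4564661 (next 18.5 CPM) and 11.19 CPM on chromosome 9 from 38248033 to 38249247 (next 10.15 CPM), above the other sham rats. It had 8.883 CPM on chromosome 7 from 127457098 to 127458782 and 4.543 CPM on chromosome 12 from 43089943 to 43090963, below them. In the group of dense regions on chromosome 18 it was also the lowest sham rat, with 23.73 CPM from 38735179 to 38735676, 17.22 CPM from 38744181 to 38744764 and 8.951 CPM from 38745021 to 38746338.

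Sham rat 1 had 2244 CPM on chromosome 7 from 101749393 to 101750355 (next sham rat 909.7 CPM) and 1258 CPM on chromosome 8 from 120170940 to 120172045 (next 397.8 CPM). TBI rat 4 had 19.03 CPM on chromosome 17 from 72429505 to 72431775 (next TBI rat 14.0 CPM). TBI rat 2 had 11.55 CPM on chromosome 9 from 38248033 to 38249247, where the other TBI rats had at most 10.25 CPM.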

How the results depend on the processing

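No paired analysis was possible because each rat number belonged to a single group. Tag totals limit single values by counting error. In the dense regions its median was 8.49%, compared with a median within-group coefficient of variation of 24.8% in all 10 rats. What limited the comparison of sham and TBI rats was not tested. Why a value moved was not tested, except where the setting itself says so.

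In the dense regions, 3 had an unadjusted p under 0.01 (2 higher in TBI rats, 1 lower). This count was 14 with loess offsets (5 higher, 9 lower), 1 when all regions with at least 1 tag were tested (0 higher), 6 by the exact test (4 lower) and 6 by the DESeq2 Wald test (3 lower). Over all regions tested, the shares were 0.358%, 0.535%, 0.371% and 0.245%, compared with 0.251%, 0.0179%, 0.108% and 0.108% of the dense regions. With total tags alone the count was 4 (2 lower), which is 0.0717% compared with 0.265% of all regions. In the densest 0.5% it was 1 (1 higher, 0 lower), since fewer regions were counted. In the densest 2% it was 4 (2 lower), with density over all 10 rats 4 (2 lower), and with the median of 9 rats 2 (0 lower). These last 3 choices and the densest 0.5% were read from the fit with all rats, with 0.266% of all regions. Omitting each rat in turn, the count ranged from 2 to 78, that of higher regions from 0 to 10, that of lower regions from 1 to 74, and that at an adjusted p under 0.05 from 0 to 1. Counts moved by over 1.5 times without sham rat 1 (5), sham rat 4 (14), sham rat 5 (78) and TBI rat 5 (5). Over all regions tested, the shares in these fits were 0.433%, 0.727%, 0.792% and 0.263%, compared with 0.266% with all rats. Of the dense regions they were 0.0896%, 0.251%, 1.4% and 0.0896%. Of these fits, only that without sham rat 5 had a larger share in the dense regions than over all regions. Combinations without sham rat 5, chosen after seeing the data, gave 75 regions with total tags (4 higher, 71 lower), 82 with loess offsets (7 higher, 75 lower), 80 with DESeq2 size factors (4 higher, 76 lower) and 83 by the exact test (4 higher, 79 lower), each with 1 region at an adjusted p under 0.05. The shares over all regions were 0.806%, 0.862%, 0.791% and 0.863%. Shares over all regions in this section count both directions together, so the counts by direction have no reference here.

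The median log2 fold change of the dense regions ranged from -0.13 to 0.14 over the fits that omit a rat. The difference in the share of tags in the dense regions (TBI minus sham, 0.166 percentage points) changed sign on leaving out sham rat 2 (-0.0648) or sham rat 5 (-0.566), and came to -0.401 when the regions over 2 tags per bp were left out as well as sham rat 5. Omitting each rat in turn gave -0.566 to 0.619, and the difference passed the test in no setting run. The share of dense regions with another within 10 kb (15.8%) was 56.5% within 100 kb, 11.6% in the densest 0.5% and 25.6% in the densest 2%, since the number of regions and the distance set it. For the named regions called in a fit, 74 of 93 values under other settings kept an unadjusted p under 0.01, 19 did not, and 0 changed direction. Since small p-values chose these regions, the kept directions test nothing.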
